A study of Mus musculus with 12 samples.

Results

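Mesendoderm transcription factors are the DNA-binding proteins that mark and drive the first steps of gastrulation, when cells of the epiblast pass through the primitive streak to become mesoderm and definitive endoderm. The 8 genes examined were T, Eomes, Gsc, Lhx1, Foxa2, Sox17, Gata4 and Gata6. They were chosen by symbol, and for a symbol with several loci the locus with the highest mean was used. Of the 8, 7 had a named locus among 13508 named genes, and Gata6 was not analysed here. Only T, Eomes, Gsc and Gata4 reached FPKM of at least 1 in at least 2 of the 12 libraries and were among the 12823 genes tested. Lhx1, Foxa2 and Sox17 stayed below that limit, so their values are given mainly as levels.

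FPKM is the number of fragments scaled to the length of the transcript and to the size of the library. The RNA came from 4 mouse embryonic stem cell lines of strain 129SvEv. Lines 18 and 26 were wild type (WT), and lines 25 and 39 lacked Arkadia (Arkadia -/-, called null here), the ubiquitin ligase encoded by Rnf111 that targets inhibitors of SMAD signalling. All dishes spent 24 h in N2B27 on fibronectin, a step meant to bring the cells to an epiblast-like state, and then 4 h with 10 µM SB431542 (SB), which blocks the type I receptor kinases of Activin and Nodal. Per line, 1 dish was then collected, and the others were washed and given 10 ng/ml Activin A for 3 or 6 h, which made 6 groups of 2 lines. No group received fresh medium without Activin, so the effect of Activin cannot be told apart from that of washing out the inhibitor, renewing the medium and the time that passed. The libraries of a group came from separate cell lines, and each line gave 1 library per treatment.

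In the embryo, Nodal signals through the same receptors as Activin and through SMAD2 and SMAD3, which reach DNA together with partners such as FOXH1 and the T-box protein EOMES. High signalling is known to favour anterior streak, node and endoderm genes, and lower signalling to favour posterior streak and mesoderm genes. T (Brachyury) marks the whole streak and the notochord, Eomes the early streak and the progenitors of endoderm and cardiac mesoderm, Gsc and Lhx1 the organizer, and Foxa2, Sox17 and Gata4 the endoderm and, for Gata4, also the heart.

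The promoters of the 4 genes with a RefSeq entry whose values were higher in Activin at 3 h than in SB are shown because these genes moved together at that time. They are from RefSeq on GRCm38.p6, are written 5′ to 3′ on the strand of the gene and end at or before the annotated start, and bases in annotated exons were left out. The capitals in the Lhx1 promoter mark CAGAC, the SMAD-binding letters, 60 bases before the start site. The windows are chr17:8434173-8434422 on the plus strand for T, chr9:118477939-118478188 on the plus strand for Eomes, chr12:104473331-104473486 on the minus strand for Gsc and chr11:84525536-84525784 on the minus strand for Lhx1.
T: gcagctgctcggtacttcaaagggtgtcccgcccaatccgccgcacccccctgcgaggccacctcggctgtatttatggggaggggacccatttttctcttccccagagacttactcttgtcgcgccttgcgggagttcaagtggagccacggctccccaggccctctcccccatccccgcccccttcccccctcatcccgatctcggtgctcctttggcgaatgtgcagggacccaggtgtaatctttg
Eomes: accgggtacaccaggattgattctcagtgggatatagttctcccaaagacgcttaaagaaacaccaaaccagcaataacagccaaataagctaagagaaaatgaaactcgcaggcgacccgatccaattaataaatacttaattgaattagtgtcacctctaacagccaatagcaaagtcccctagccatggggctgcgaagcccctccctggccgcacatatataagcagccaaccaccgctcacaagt
Gsc: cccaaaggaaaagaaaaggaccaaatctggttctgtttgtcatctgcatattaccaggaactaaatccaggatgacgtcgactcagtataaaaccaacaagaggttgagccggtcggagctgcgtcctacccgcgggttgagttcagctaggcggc
Lhx1: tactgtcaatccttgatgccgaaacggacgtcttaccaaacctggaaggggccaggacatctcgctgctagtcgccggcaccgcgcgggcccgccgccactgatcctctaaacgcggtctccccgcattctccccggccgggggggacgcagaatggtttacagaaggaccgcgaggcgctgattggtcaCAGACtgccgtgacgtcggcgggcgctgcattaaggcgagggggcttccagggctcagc

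In windows of 300 bases around the start, 3 motifs were searched on both strands. The FOXH1 letters AATNCACA occurred in 3.6% of 32851 RefSeq windows, the T-box letters AGGTGTGA in 1.28% and the SMAD letters CAGAC in 49.6%. None of the 7 windows of the 5 genes with an entry (T, Eomes, Gsc, Lhx1 and Foxa2) held the FOXH1 or T-box letters. CAGAC occurred in the Lhx1 window and in 1 of the 3 Foxa2 windows, 17 bases after the start. Sox17 and Gata4 are named only. A match describes letters in the window and is not a binding site.

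How much of each gene a value represents differed. The T locus, chr17:8434350-8442494 in mm10 as the deposited table gives it, covered 99.9% of the annotated exon bases. The Gsc locus, chr12:104471217-104473300, covered 97.0%, and the Eomes locus, chr9:118478785-118486123, covered 86.0% and overlapped the antisense gene Gm33460. The Foxa2 locus, chr2:148044157-148045929, held 40.5% of the exon bases, and the Sox17 locus, chr1:4492362-4493251, held 18.7%. The Lhx1 locus, chr11:84518853-84519325, and the Gata4 locus, chr14:63199318-63199719, lay wholly in untranslated sequence and held 11.6% and 10.3% of the exon bases. Values of these last 4 genes therefore describe a stretch of the gene. Whether starts are counted from 0 or from 1 is not given in the sources used here.

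Rnf111, the gene missing in the null lines, stood at 3.19 to 4.27 FPKM in the 6 WT libraries and at 0.539 to 0.855 in the 6 null libraries, lower in null at every time (adjusted p from 0.00095 to 0.0013). The libraries of a group correlated at 0.989 to 0.993 across genes. Depth relative to the shallowest library, null line 39 at 6 h, ran from 1.47 to 1.81 in SB, from 1.22 to 1.57 at 3 h and up to 1.51 at 6 h, so low values were least precise in the null Activin libraries. Of the markers of embryonic stem cells and epiblast, 12 of 12 had a locus, and Pou5f1, the highest of them, stood at 562 to 926 FPKM. Others were far lower, with Esrrb at 1.55 to 3.47 FPKM, and Nanog at 3.45 to 5.44 in SB.

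The 4 tested factors rose at 3 h in both genotypes and then parted. In each of the 4 lines T was higher at 6 h than at 3 h, Eomes was a little lower, and Gsc and Gata4 were far below their 3 h level. Gsc had the largest response of the 4, at a fitted 7.41-fold in WT. Fitted folds and log2 differences are of FPKM + 1, which understates the change of genes with low FPKM.

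**Figure D1:**
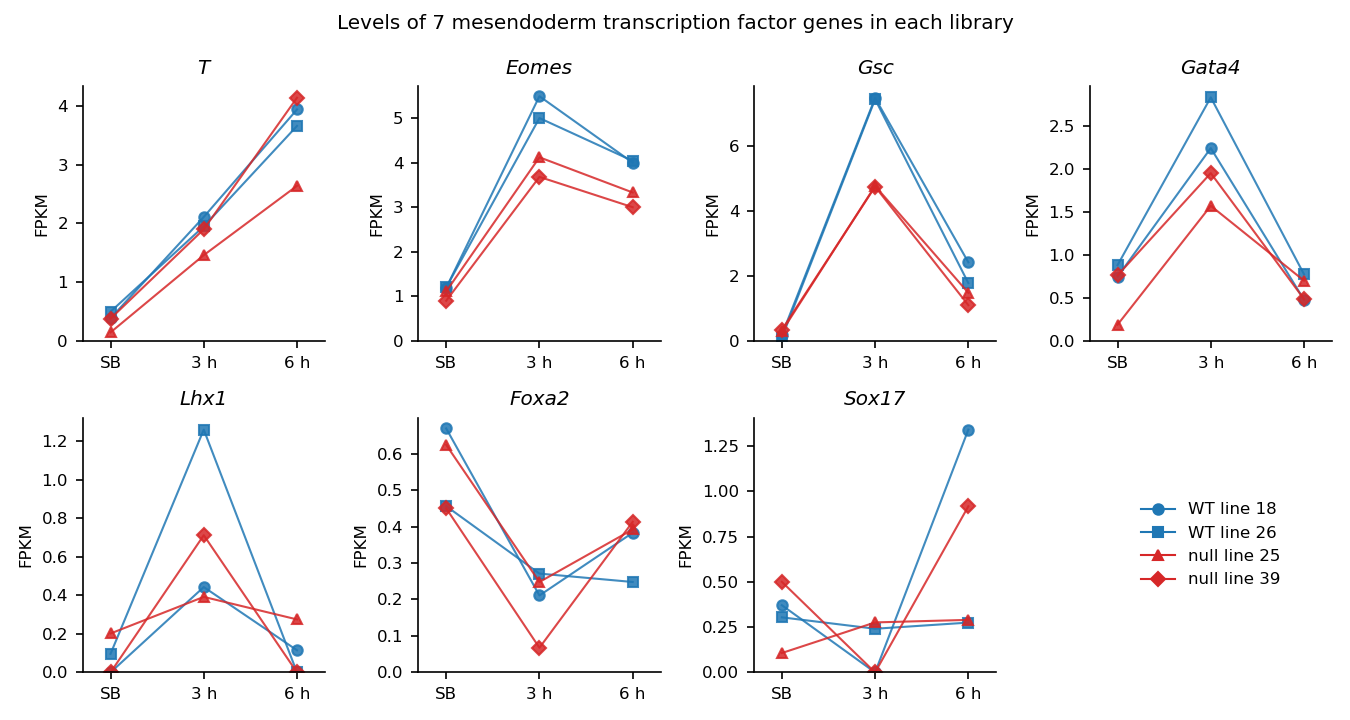
FPKM of the 7 factors with a locus (vertical axis, linear, starting at 0) in SB and after 3 and 6 h of Activin (horizontal axis), with 1 point per library and a line joining the 3 libraries of a cell line. T climbs to 2.64 to 4.14 at 6 h in all 4 lines, while Gsc and Gata4 are highest at 3 h in all 4 lines.

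T, the founding T-box gene and the classical streak marker, was low in SB, rose at 3 h and stood higher at 6 h in every line. In WT lines 18 and 26 it stood at 0.384 and 0.497 FPKM in SB, 2.11 and 1.95 at 3 h, and 3.94 and 3.66 at 6 h. In null lines 25 and 39 it stood at 0.145 and 0.379 in SB, 1.46 and 1.9 at 3 h, and 2.64 and 4.14 at 6 h. Every 6 h library was above every 3 h library, and every 3 h library above every SB library, across both genotypes. Among the 6 group means only WT and null at 6 h had overlapping ranges.

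The fitted rise of T at 3 h was 1.07 on the log2 scale in WT (SE 0.172, adjusted p = 0.0046) and 1.09 in null (SE 0.172, adjusted p = 0.0062). At 6 h it was 1.74 above SB in WT (adjusted p = 0.00038) and 1.78 in null (adjusted p = 0.00042). Between 3 and 6 h T was 0.66 higher in WT (95% interval 0.27 to 1.05, adjusted p = 0.089) and 0.70 higher in null (0.31 to 1.09, adjusted p = 0.057), neither past the threshold of 0.05. With the cell line as a block, both passed (adjusted p = 0.022 in WT and 0.013 in null). Each line gave a ratio of 6 h to 3 h between 1.82 and 2.19. Without line 18 or line 26 the WT rise at 3 h was 0.98 (adjusted p = 0.27) or 1.17 (0.19), and the WT rise at 6 h was 1.64 (0.094) or 1.84 (0.07). The null rise at 3 h stayed at 1.09, with adjusted p = 0.073 without line 18 and 0.072 without line 26, since the spread is pooled over the groups.

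Eomes, a T-box factor that acts with SMAD2 and SMAD3 in endoderm specification, had the highest SB level of the 4 tested factors and kept most of its 3 h gain. In lines 18 and 26 it stood at 1.19 and 1.2 FPKM in SB, 5.49 and 5 at 3 h, and 4 and 4.04 at 6 h. In lines 25 and 39 it stood at 1.11 and 0.901 in SB, 4.12 and 3.68 at 3 h, and 3.33 and 3 at 6 h. All Activin libraries were above all SB libraries, and in each line the 6 h value lay below the 3 h value.

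The rise of Eomes at 3 h was 1.51 on the log2 scale in WT (SE 0.0928, adjusted p = 2.2e-05) and 1.29 in null (SE 0.0928, adjusted p = 0.0001). At 6 h it was 1.19 in WT (adjusted p = 0.00011) and 1.06 in null (adjusted p = 0.00026). Between 3 and 6 h Eomes differed by -0.31 in WT (interval -0.52 to -0.10, adjusted p = 0.13) and by -0.23 in null (-0.44 to -0.02, adjusted p = 0.19). Between 65.5 and 75.6% of the 3 h gain in FPKM was present at 6 h in the 4 lines. Without line 18 or 26, the WT rise at 6 h had adjusted p = 0.05 (just above the threshold before rounding) or 0.055.

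A second locus carried the Eomes name, 309 bases at chr9:118487107-118487415, outside the annotated Eomes gene and inside the antisense Gm33460. It stood at 0 to 1.25 FPKM in SB, 1.37 to 1.95 at 3 h and 0.863 to 3.15 at 6 h. At 3 h every library was above every SB library, while the 6 h values overlapped both. Whether reads were counted by strand is not given in these sources, so those of the antisense gene and of Eomes cannot be told apart.

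Gsc (goosecoid), a homeobox repressor of the organizer, had the largest rise at 3 h of the 4 tested factors and was lower again at 6 h in every line. It stood at 0.185 and 0.101 FPKM in SB in lines 18 and 26, 7.48 and 7.44 at 3 h, and 2.42 and 1.78 at 6 h. In lines 25 and 39 it stood at 0.292 and 0.342 in SB, 4.77 and 4.75 at 3 h, and 1.48 and 1.1 at 6 h. No ranges overlapped among its 6 group means, which ran in the order WT 3 h, null 3 h, WT 6 h, null 6 h, null SB and WT SB. From the step between its FPKM values, the SB levels rested on 4 to 11 reads per library and the 3 h levels on 127 to 257, if 1 step is 1 read.

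The rise of Gsc at 3 h was 2.89 on the log2 scale in WT (SE 0.124, adjusted p = 2.1e-06) and 2.13 in null (SE 0.124, adjusted p = 2.5e-05). Gsc then fell from 3 to 6 h, by 1.46 in WT (SE 0.124, adjusted p = 0.0022) and by 1.34 in null (SE 0.124, adjusted p = 0.0028). At 6 h it was still above SB, by 1.43 in WT (adjusted p = 0.0002) and by 0.79 in null (adjusted p = 0.0052). The 6 h level was 0.231 to 0.324 of the 3 h level in the 4 lines. Without line 18 the WT fall was 1.60 (log2 difference -1.60, adjusted p = 0.29) and without line 26 it was 1.31 (-1.31, adjusted p = 0.31). The null fall had adjusted p = 0.073 without line 18 or 26, 0.078 without line 25 and 0.076 without line 39, and without line 25 the null difference at 6 h against SB was 0.64 (adjusted p = 0.079).

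Gata4, a zinc finger factor of endoderm and heart, also peaked at 3 h, and its 6 h levels lay within the SB range over all lines. In lines 18 and 26 it stood at 0.746 and 0.88 FPKM in SB, 2.24 and 2.83 at 3 h, and 0.478 and 0.774 at 6 h. In lines 25 and 39 it stood at 0.188 and 0.762 in SB, 1.57 and 1.95 at 3 h, and 0.7 and 0.486 at 6 h. All 3 h libraries were above all others, and the SB and 6 h ranges overlapped. Only the 3 h libraries reached FPKM 1, so Gata4 was tested only through its 3 h level. In line 25 the 6 h level was 3.72 times that in SB, against 0.637 to 0.88 times in the other lines.

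The rise of Gata4 at 3 h was 0.96 on the log2 scale in WT (SE 0.197, adjusted p = 0.013) and 0.93 in null (SE 0.197, adjusted p = 0.019). By 6 h it fell by 1.12 in WT (adjusted p = 0.026) and differed by -0.79 in null (adjusted p = 0.059, and 0.035 with the cell line as a block). The difference between 6 h and SB was -0.16 in WT (interval -0.61 to 0.29) and 0.13 in null (-0.31 to 0.58). With a pseudocount of 0.1 the WT fall had adjusted p = 0.088, and with the WT groups alone 0.063. Without line 18 or 26 the rise in WT had adjusted p = 0.27 or 0.26, and the fall in WT 0.54 or 0.56. The null rise had adjusted p = 0.1 without line 18, 25 or 26.

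Read against all genes, the counts of called factors carry a limit from the filter. T and Gsc reached FPKM 1 in 8 libraries and Gata4 in 4, none of them in SB. They passed the filter only through Activin libraries. Foxa2 and Sox17, with lower mean FPKM at 3 h than in SB, did not pass it. Counts of factors higher than in SB, and the falls of Gata4 from 3 h, are therefore partly set by the filter. The counts were these. In WT at 3 h against SB, 4 of 4 tested factors were higher, where 12.6% of all tested genes were called higher and 9.83% lower. In null at 3 h against SB, 4 of 4 were higher, where 6.5% of all genes were called higher and 7.14% lower. In WT at 6 h against SB, T, Eomes and Gsc were higher, where 9.59% were called higher and 6.31% lower. The same 3 factors were higher in null at 6 h, where 7.87% were called higher and 5.53% lower. In WT from 3 to 6 h, Gsc and Gata4 were lower, where 1.31% of all genes were called lower and 1.22% higher. In null, Gsc was lower, where 1.86% were called lower and 2.78% higher.

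Averaging the response over both genotypes was added after the values had been seen, and it placed all 4 tested factors past the threshold in both steps. At 3 h against SB, 4 of 4 were higher, with the same limit from the filter, where 18.8% of all genes were called higher and 18.7% lower. T was higher at 6 h than at 3 h by 0.68 (SE 0.121, adjusted p = 0.0097), where 7.83% of all genes were called higher. Eomes fell by 0.27 (SE 0.0656, adjusted p = 0.029), Gsc by 1.40 (SE 0.0877, adjusted p = 0.0002) and Gata4 by 0.96 (SE 0.14, adjusted p = 0.0043), where 4.95% were called lower. The T rise had adjusted p = 0.18 without line 18 and 0.19 without line 26. The Eomes fall did not pass without any 1 of the 4 lines, with adjusted p from 0.056 to 0.33, nor when the second locus was added to the gene (-0.12, adjusted p = 0.71). The Gata4 fall had adjusted p = 0.11 without line 18 and 0.12 without line 26, and its rise at 3 h 0.051 without line 26.

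**Figure D2:**
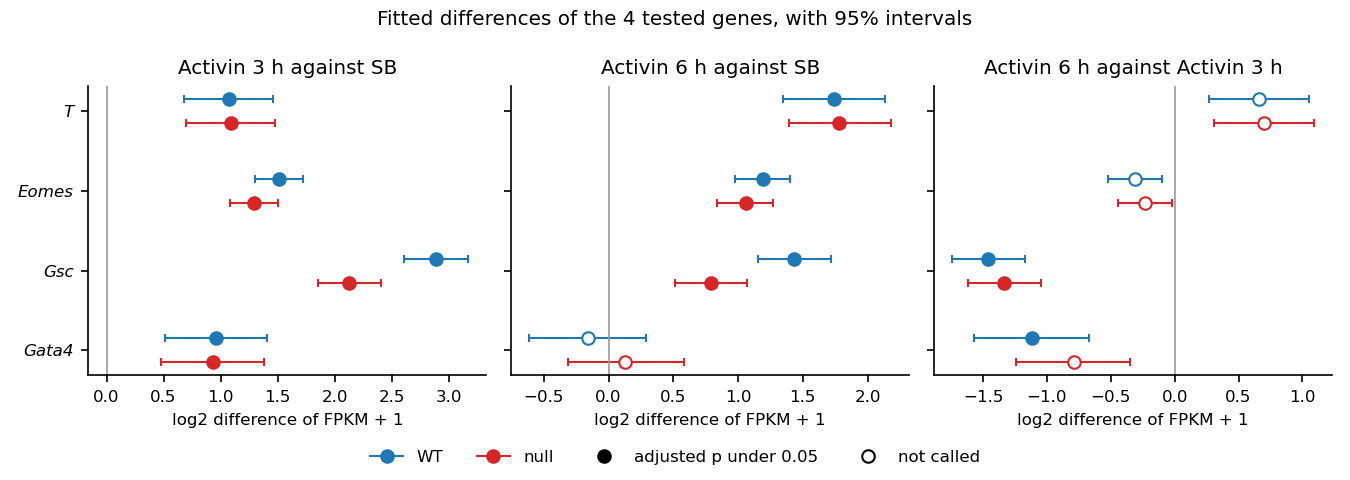
Fitted log2 differences of FPKM + 1 (horizontal axis) of T, Eomes, Gsc and Gata4 (vertical axis) in WT and null, as points with 95% intervals, for the 3 comparisons of treatments. Filled points passed an adjusted p of 0.05, and from 3 to 6 h the points of T lie above 0 and those of Gsc and Gata4 below 0 in both genotypes.

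The order of the factors turned over between the time points. Gsc stood above T in every 3 h library, with T at 0.262 to 0.399 of the Gsc level. At 6 h T stood above Gsc in every library, at 1.63 to 3.78 times its level. Gsc was also above Eomes at 3 h, at 1.16 to 1.49 times the Eomes level, and below it at 6 h, at 0.365 to 0.605. These are FPKM, which are scaled for length, and no test was made between genes.

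**Figure D3:**
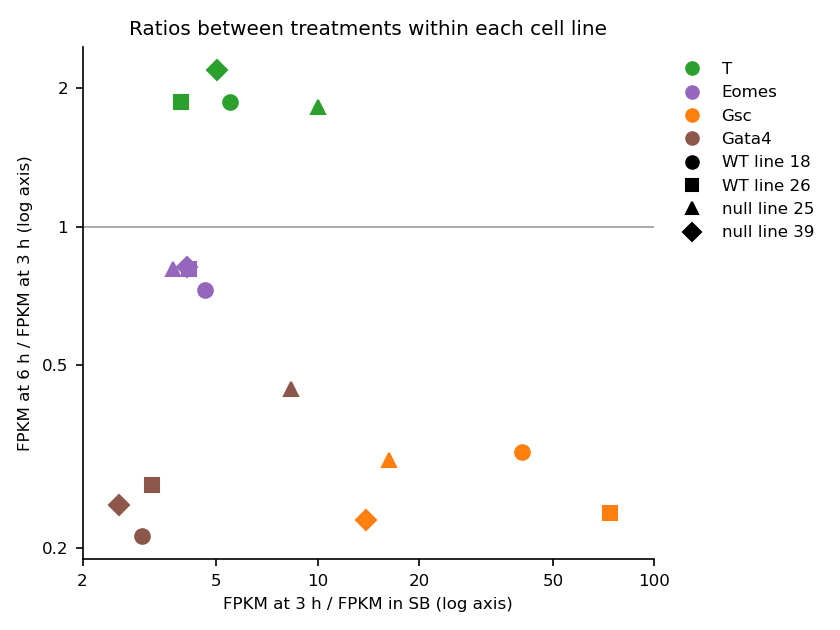
Ratio of FPKM at 3 h to SB (horizontal, log axis) against the ratio of 6 h to 3 h (vertical, log axis) for the 4 tested factors, with 1 point per gene and cell line. T lies above the line at 1, Eomes just below it at 0.729 to 0.816, and Gsc and Gata4 between 0.213 and 0.445, in all 4 lines. Both axes use the 3 h value.

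The null lines had lower mean levels than WT for most factors after Activin, but none of the 4 tested factors was called between genotypes. For Gsc at 3 h the null lines were 0.56 lower on the log2 scale (interval -0.84 to -0.27, log2 difference -0.56, unadjusted p = 0.0017, adjusted p = 0.13), and neither null line reached either WT line. For Eomes at 3 h the difference was -0.35 (interval -0.56 to -0.14, unadjusted p = 0.0046, adjusted p = 0.19), again with no overlap of the lines. The shares of all genes with lower means in null, or with no overlap between the lines of the genotypes, were not counted. Neither pattern, here or above, is read as a genotype effect. At 6 h the differences were -0.44 for Gsc (adjusted p = 0.22) and -0.27 for Eomes (adjusted p = 0.28). T differed by -0.18 at 3 h (interval -0.57 to 0.21) and by -0.15 at 6 h (-0.54 to 0.24), and Gata4 by -0.35 at 3 h (-0.80 to 0.09) and -0.03 at 6 h (-0.48 to 0.42).

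Across all genes, null against WT called 0.312% in SB, 0.382% at 3 h and 0.211% at 6 h. At an unadjusted p under 0.05, 0 of the 4 factors passed in SB, 2 at 3 h and 2 at 6 h, Gsc and Eomes at both times, beside 1910, 1655 and 1881 of 12823 genes at that threshold. On the mean of each line over its 3 libraries, which takes the line as the unit, the differences were -0.18 for T, -0.25 for Eomes, -0.26 for Gsc and -0.24 for Gata4, with adjusted p from 0.35 to 0.55. Relative depth was 1.22 and 1.33 in the null 3 h libraries and 1.52 and 1.57 in the WT ones, and its part in these differences was not tested.

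The response itself was compared between genotypes with an interaction term. For Gsc the rise at 3 h was smaller in null by 0.76 (difference -0.76, interval -1.16 to -0.36, unadjusted p = 0.002, adjusted p = 0.73) and the rise at 6 h differed by -0.64 (unadjusted p = 0.0056, adjusted p = 1). For T the 3 h response differed by 0.01 (interval -0.54 to 0.56), for Eomes by -0.22 (-0.52 to 0.08) and for Gata4 by -0.03 (-0.67 to 0.60). The change from 3 to 6 h differed by 0.04 for T, 0.08 for Eomes, 0.12 for Gsc and 0.33 for Gata4, with no unadjusted p under 0.05. limma called 0% of all genes at 3 h, 0% at 6 h and 0% for the change between them. At an unadjusted p under 0.05 these terms gave 654, 382 and 486 of 12823 genes, and no other tool was run.

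Lhx1, Foxa2 and Sox17 were at the lower edge of detection, with mean FPKM of 0.291, 0.369 and 0.385 over the 12 libraries. Their FPKM fell on whole steps, so the reads behind them could be read off if 1 step is 1 read. A step could also be more than 1 read, and the intervals given cover counting error only.

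**Figure D4:**
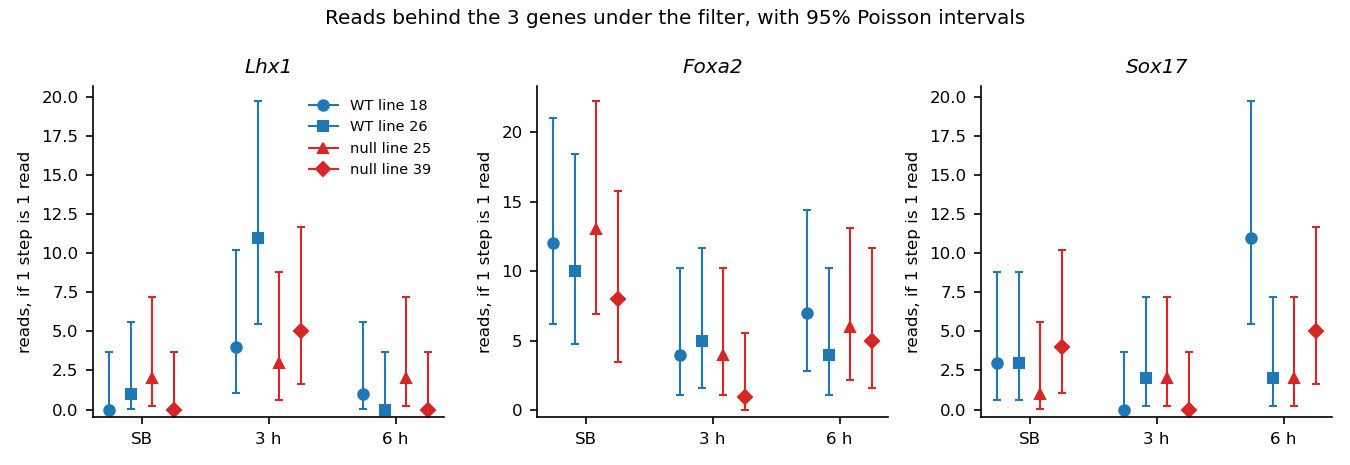
Reads behind Lhx1, Foxa2 and Sox17 in each library (vertical axis, if 1 step is 1 read) by treatment (horizontal axis), with 95% Poisson intervals that cover counting error only. Lhx1 has 3 to 11 reads at 3 h against 0 to 2 in the other libraries, and the intervals of Sox17 overlap broadly. The library differences in depth are not removed in this plot.

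Lhx1, a LIM homeobox factor of the organizer and anterior streak, was highest at 3 h in all 4 lines. It stood at 0.443 and 1.26 FPKM at 3 h in lines 18 and 26, and at 0.392 and 0.712 in lines 25 and 39. In SB it stood at 0, 0.0961, 0.202 and 0 in lines 18, 26, 25 and 39, and at 6 h at 0.115, 0, 0.275 and 0. Every 3 h library lay above every other, with 23 reads over the 4 libraries at 3 h and 3 reads each over those in SB and at 6 h. Without the filter on low values, the rise at 3 h was 0.79 in WT (adjusted p = 0.042) and the difference 0.49 in null (adjusted p = 0.18). Averaged over both genotypes, Lhx1 was 0.64 higher at 3 h than in SB (adjusted p = 0.016) and fell by 0.61 from 3 to 6 h (adjusted p = 0.042). This averaging was added after the values had been seen, and 11 of the 23 reads came from WT line 26. Null line 25 had 3 reads at 3 h, against 2 in SB and 2 at 6 h. The share of all genes called without the filter was not counted. With the filter, the averaging called 18.8% of genes higher at 3 h and 4.95% lower from 3 to 6 h.

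The neighbouring antisense-named gene Lhx1os, whose locus does not overlap that of Lhx1, stood at 0.0551 to 1.34 FPKM in SB, 1.52 to 3.55 at 3 h and 0.793 to 2.47 at 6 h. Its 3 h value was the highest of the 3 in each line.

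Foxa2, a forkhead factor of endoderm, node and notochord, went the other way at 3 h. It stood at 0.669, 0.456, 0.624 and 0.45 FPKM in SB in lines 18, 26, 25 and 39, at 0.211, 0.271, 0.248 and 0.0676 at 3 h, and at 0.383, 0.248, 0.392 and 0.413 at 6 h. Every SB library lay above every Activin library, with 43 reads over the 4 SB libraries, 14 at 3 h and 22 at 6 h. Without the filter, the difference at 3 h was -0.33 in WT (adjusted p = 0.11) and -0.41 in null (adjusted p = 0.076). In the averaging over both genotypes, added after the values had been seen, Foxa2 was lower by 0.37 (log2 difference -0.37, adjusted p = 0.016). With the filter, that averaging called 18.7% of all genes lower at 3 h, and the share without it was not counted.

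Sox17, an HMG-box factor of definitive and extraembryonic endoderm, had few reads in every library. It stood at 0.371, 0.304, 0.107 and 0.5 FPKM in SB in lines 18, 26, 25 and 39, at 0, 0.241, 0.276 and 0 at 3 h, and at 1.34, 0.275, 0.29 and 0.917 at 6 h. FPKM was higher at 6 h than at 3 h in each line, but in lines 26 and 25 both values rested on 2 reads. SB had no fixed place in the order. The highest values were those of lines 18 and 39 at 6 h, with 11 and 5 reads. Averaged over both genotypes, the difference was -0.23 at 3 h against SB (adjusted p = 0.45) and 0.55 from 3 to 6 h (adjusted p = 0.14), without the filter.

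Among the 12823 tested genes, those whose log2 levels followed each factor most closely over the 12 libraries were read off as a description. The libraries share treatments and cell lines, so any gene with the same time course scores high. For T they were Gm16233 (r = 0.993), Clca4a (0.983) and Psme2 (0.980), and Psme2, a subunit of a proteasome activator, averaged 55.1, 144 and 219 FPKM in WT in SB and at 3 and 6 h. For Eomes they were Fgf15 (0.996), Lefty2 (0.990), an inhibitor of Nodal, and Irgm1 (0.988). For Gsc they were Relt (0.986), Papolb (0.981) and Tcirg1 (0.980), and for Gata4 Rbm47 (0.945), Kif26a (0.944) and Nectin4 (0.941). Among the factors themselves, Eomes and Gsc correlated at 0.911, Gsc and Gata4 at 0.814, T and Eomes at 0.809, Eomes and Gata4 at 0.60, T and Gsc at 0.538 and T and Gata4 at 0.144.

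The other genes of the primitive streak and early mesoderm did not move as a block. Counts for this and the following lists stand beside the shares of all tested genes given above for each comparison. At 3 h against SB those shares were 12.6% higher and 9.83% lower in WT, and 6.5% higher and 7.14% lower in null. Of 18 streak and early mesoderm genes listed, 10 had a locus and 9 were tested. In WT at 3 h 2 rose and 2 fell, with a median of -0.20 on the log2 scale against -0.01 over all tested genes. Fgf8, the streak growth factor, rose by 3.00 (adjusted p = 2.4e-05), from 0.225 and 0.156 FPKM in SB to 8.42 and 8.65 at 3 h, and Wnt3, which is needed to form the streak, rose by 2.11 (adjusted p = 1.8e-05). Both then fell from 3 to 6 h in WT, Fgf8 by 0.90 (adjusted p = 0.047) and Wnt3 by 0.73 (adjusted p = 0.024). No listed gene rose in that step in WT. In null, 2 rose and 0 fell at 3 h, and 0 rose and 0 fell from 3 to 6 h, where Fgf8 differed by -0.36 and Wnt3 by -0.47. In the averaging over both genotypes, which also called T higher, 2 listed genes rose from 3 to 6 h and 2 fell. The 2 that rose were Sp5 (0.68, adjusted p = 0.011) and Bmp4 (0.50, adjusted p = 0.042). Of all tested genes, 7.83% were called higher and 4.95% lower in that averaging. At 6 h against SB 3 rose and 1 fell in both genotypes.

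Of the node and anterior streak genes, 10 were listed, 7 had a locus and 6 were tested. At 3 h 3 rose and 0 fell in WT, with a median of 0.24, and 3 rose and 0 fell in null, with a median of 0.28. Dkk1, a WNT inhibitor, rose by 1.68 and Nog, a BMP inhibitor, by 0.86 in WT. In the later step 1 rose and 1 fell in both genotypes: Fst (follistatin, which binds and blocks Activin) rose by 1.96 in WT (adjusted p = 0.0022) from 8.75 and 6.78 FPKM to 33.1 and 32.4, and Otx2, a head homeobox gene that had risen by 0.31 at 3 h, fell by 0.38. Foxj1 differed by -0.46 (adjusted p = 0.36). At 6 h against SB 3 rose in WT and 2 in null, and 0 fell.

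Of 10 definitive endoderm genes, 7 had a locus and were tested. At 3 h 3 rose and 0 fell in WT (median 0.10), and 1 rose and 0 fell in null (median 0.17). Trh, which encodes a peptide hormone precursor, rose by 2.44 in WT and 1.98 in null, and from 3 to 6 h it differed by 0.40 in WT (adjusted p = 0.18). Prdm1, a zinc finger repressor, rose by 1.89 in WT and then fell by 2.02 (adjusted p = 0.022), from 5.89 and 10.9 FPKM to 0.777 and 1.8, and was the 1 gene called in that step in WT. In null, 1 gene rose from 3 to 6 h, Trh, and 2 of 7 were higher at 6 h than in SB in each genotype, with 0 lower.

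The Nodal pathway had 14 of 14 listed genes tested. In WT 7 rose and 1 fell at 3 h (median 0.88), and 7 rose and 0 fell in null (median 0.48). Lefty1, a secreted Nodal inhibitor, rose by 6.64 and Lefty2 by 5.56 in WT. In WT 5 then fell by 6 h and 0 rose: Lefty1 by 1.30, Lefty2 by 1.28, Smad7 by 0.84, Skil by 0.37 and Pmepa1 by 1.39, all of them inhibitors of the pathway. In null 3 fell and 0 rose. At 6 h against SB 7 rose and 1 fell in both genotypes. Between genotypes 2 of the 14 were called at 3 h, Skil (-1.16, adjusted p = 0.00043) and Pmepa1 (-1.21, adjusted p = 0.01), and 1 at 6 h, Skil (-0.96), which are named after their values were seen.

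**Figure D5:**
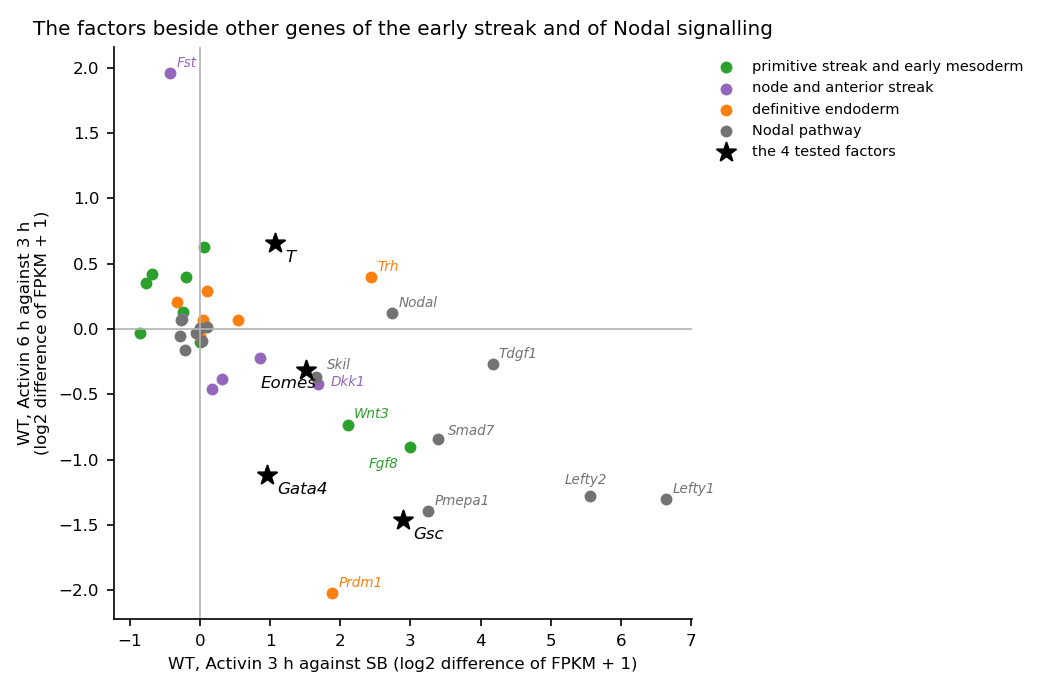
Log2 difference of FPKM + 1 in WT at 3 h against SB (horizontal axis) and at 6 h against 3 h (vertical axis) for the tested genes of 4 lists (coloured points) and the 4 tested factors (stars). Gsc and Gata4 lie below 0 on the vertical axis with Lefty1, Lefty2 and Pmepa1, and T lies above it at 0.66. Both axes use the WT 3 h libraries.

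Family relatives of the factors were mostly low: of 27 listed, 9 had a locus and 7 were tested. In WT at 3 h Tbx3, a T-box gene, rose by 1.33, Otx2 rose and Tbx4 fell by 0.94, and the counts were also 2 up and 1 down in null. In the later step 0 rose and 1 fell, Otx2, in both genotypes, and Tbx3 differed by -0.97 in WT (adjusted p = 0.13). At 6 h against SB 1 rose and 1 fell in WT, and 0 rose and 1 fell in null.

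Gata4, Sox17 and Foxa2 are also genes of extraembryonic endoderm, so its markers were read beside them. Of 14 markers, 9 had a locus and 8 were tested. Their summed level was 21.6 to 22.1 FPKM in WT SB, 26.2 to 30.2 at 3 h and 18.6 to 21.1 at 6 h, and 18.9 to 23.7, 21.9 to 27.7 and 19.3 to 23.1 in null. At 3 h 1 of 8 rose and 0 fell in each genotype, Lamb1, a laminin gene (0.51 in WT, adjusted p = 0.022). Of all tested genes, 12.6% were called higher at 3 h in WT and 6.5% in null, so these counts do not set the markers apart. Lama1 differed by 0.59 in WT at 3 h (adjusted p = 0.11), and 0 markers were called in the other comparisons within a genotype. Averaged over both genotypes, Lamb1 and Lrp2 (0.25, adjusted p = 0.035) were higher at 3 h than in SB, where 18.8% of all genes were called higher. Between 3 and 6 h in WT Lama1 differed by -0.97 and Afp by 0.40. The secreted fetal serum protein Afp stood at 0.242 to 1.86 FPKM over the 12 libraries, and the part of such cells in the Gata4 values was not tested. In bulk RNA, fewer cells of a type and less RNA per cell cannot be told apart.

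Trophoblast markers, of which Eomes is also a known gene, had 6 of 10 with a locus, all tested, and 0 were called in WT in any comparison of treatments. The trophoblast sum was 13 to 15.3 FPKM in WT SB and 13.3 to 18.2 at 3 h, and Tfap2c differed by -0.38, Krt7 by 0.35 and, from 3 to 6 h, Gata3 by -0.35 and Cdx2 by 0.33. In null 0 rose and 1 fell at 6 h against SB, and 0 were called in the other comparisons. Of 8 fibroblast markers tested 1 rose at 3 h in WT, Pdgfrb (1.19), and 2 fell, Thy1 (-0.50) among them. By 6 h, against 3 h, Pdgfrb differed by -0.62 and Thy1 by -0.25. At 6 h against SB 1 rose and 1 fell in WT, and in null 0 rose and 1 fell. Of 4 neural markers tested 2 fell in WT at 3 h, Sox1 by 0.87 with Pax6 at -0.52 not called, and 2 fell at 6 h against SB, with 1 in null. By 6 h, against 3 h, Pax6 differed by -0.56 and Zic1 by 0.29. Of 12 embryonic stem cell and epiblast markers 4 rose and 7 fell in WT at 3 h, and in null 3 rose and 2 fell. In WT Tdgf1, which is also in the Nodal pathway list, was higher by 4.17 and Nanog by 4.15. Most of the called markers went the other way in WT. Sox2 went from 44.2 and 39.8 FPKM in SB to 26.1 and 25.4 at 3 h, and Zfp42 from 75.2 and 76.6 to 45.5 and 42.3. In WT by 6 h, against 3 h, 1 rose, Fgf5 (0.37), and 1 fell, Nanog (by 0.69), and in null 1 rose and 4 fell. At 6 h against SB 4 rose and 6 fell in WT, and 3 rose and 5 fell in null.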

How the data were processed

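RNA sequencing (50 bp single reads of poly(A) RNA) was done on 12 libraries from 4 cell lines. The authors deposited 1 table of FPKM, the unit named in its header, with a status word for each value. The submitters' processing notes name mm10 as the build. No source used here gives the aligner, the quantifier or the use of strand. Loci without a name (2666), with a status other than OK (27) or beyond the highest locus of a name (1245) were left out. Read totals are unknown; relative depth came from the ratios of FPKM values under 1.5 that recur between libraries, and whole reads of a locus from the largest common step, within 0.03 of a whole number, with 95% Poisson intervals.

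limma 3.58.1 in R 4.3.3, with a trend on mean expression, took log2(FPKM + 1) of the genes that reached FPKM 1 in 2 or more libraries and estimated 6 group means (6 residual degrees of freedom). Two-sided p-values were adjusted by Benjamini-Hochberg across the 12823 genes, and the threshold was an adjusted p of 0.05. A gene called higher or said to rise passed that threshold. P-values within a treatment rest on the spread between 2 cell lines and treat the 3 libraries of 1 line as independent of each other.

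The number of a replicate is its cell line, so numbers pair the libraries of a genotype. Deviations of the same line from the group means correlated at 0.02 to 0.05 in WT and 0.25 to 0.35 in null. The main fit has no block, and the fit with the line as a replicate block is given where it changed a call.

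The 7 factors with a locus are given in every library. From each list, the 2 genes with the largest change in WT at 3 h against SB and at 6 h against 3 h are named, with those called in opposite directions, and for each tested factor the 3 genes with the highest correlation. The factors and lists were chosen with earlier results of these data known. Alternatives were a pseudocount of 0.1, no filter, a filter at FPKM 5, quantile and upper-quartile scaling, the groups compared alone, the replicate block, the sum of all loci of a name, and leaving out each line. Sequences and motif shares are from RefSeq. Python 3.11.15 and matplotlib 3.10.9 made the other values and the figures.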

Additional observations from a re-analysis of the deposited data

How the results depend on the processing

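No called difference changed sign under any alternative. Tested on FPKM of at least 5, 1 factor, Gsc, remained to be tested, and it was called in all 8 comparisons of treatments (1 of 1 in each). Gsc reached FPKM 5 only in the WT 3 h libraries (7.48 and 7.44). Its calls under that filter are therefore partly set by the filter. From 3 to 6 h in WT, 1 factor was called with a pseudocount of 0.1 and 1 with the groups compared alone, against 2. With the groups compared alone 2 were called in null at 3 h against SB, 0 at 6 h against SB and 0 from 3 to 6 h; these fits hold fewer libraries. The replicate block, which pairs the libraries of a line, gave 3 in null from 3 to 6 h against 1, and it ended no call. It could not be fitted for null against WT within a treatment, since no line has both genotypes. The share of all genes called under these alternatives was not counted.

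Leaving out 1 line at a time gives a genotype 1 library per group, so that library is assumed to vary like the other groups. The counts then ran from 2 to 4 in WT at 3 h, from 1 to 3 in WT at 6 h, from 0 to 3 in WT from 3 to 6 h, from 2 to 4 in null at 3 h, from 2 to 3 in null at 6 h, and were 0 in null from 3 to 6 h. For the mean of both genotypes they ran from 3 to 4 at 3 h and from 1 to 3 from 3 to 6 h. No factor was called between genotypes or in the interaction terms under any alternative. Depth limits Lhx1, Foxa2 and Sox17, which rest on 0 to 13 reads per library, and the SB levels of Gsc.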
